A study of Mus musculus with 24 samples.

Results

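Adhesion genes were followed through 4 stages of mouse cortical development among the RNAs recovered with STAU2. The set held 38 genes with 57 peaks, out of 7705 genes with 13754 peaks in the rows of the deposited peak table that are not called Intron or Intergenic. Members were taken by symbol: numbered cadherins (Cdh), protocadherins (Pcdh), Celsr and Fat cadherins, catenins (Ctnn), immunoglobulin-type adhesion molecules (Cntn, Ncam, Nrcam, Igsf), neurexins and neuroligins (Nrxn, Nlgn), leucine-rich repeat proteins (Lrrtm, Lrfn, Lrrn, Slitrk, Flrt) and integrins (Itga, Itgb). Cdh2, Cdh5 and Nlgn3 stood outside the set, and genes of the Nrxn, Lrrtm, Slitrk and Ncam families are not analysed here. The set also held no Cntn gene and no integrin β chain. A pair of members entered by name only: Ctnnbl1 is a nuclear catenin-like protein tied to RNA splicing, and Itgb1bp1 is a cytoplasmic protein that binds integrin tails.

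Each library was an RNA immunoprecipitation with an antibody to STAU2 from brain cortex of C57BL/6 embryos at E11.5, E13.5, E15.5 or E17.5, with 3 libraries at each stage. All 4 groups share strain, tissue and antibody, and the labels name no genetic change and no treatment. The labels do not say whether replicates came from separate embryos or litters, so a p-value speaks only of the spread among these libraries, which may be technical. Each stage also has 3 inputs, which were not analysed here, so more of an RNA in the tissue and more of it recovered with STAU2 cannot be told apart. In this bulk tissue, fewer cells of a type and less RNA per cell cannot be told apart either.

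STAU2 is a protein with double-stranded RNA-binding domains that packs RNAs into particles, and in the developing cortex it is known for carrying RNAs within dividing progenitors and young neurons. Cadherins and protocadherins pair with like molecules on the next cell, and catenins tie the tails of many cadherins, though not of protocadherins, to the actin skeleton. Celsr and Fat proteins are very large cadherins that give sheets of cells a common orientation and guide axons and migrating neurons. Flrt, Lrfn, neuroligin and immunoglobulin-type proteins act at contacts between axons, dendrites and synapses, and integrins bind cells to the extracellular matrix.

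The sequences below show the kind of RNA the counts come from. They are stretches of coding exons inside member peaks, read 5′ to 3′ on the sense strand from the GENCODE vM21 transcripts (GRCm38, the mm10 build of the table). Capitals mark the 2 arms of the longest unbroken stem that RNAfold predicted in the whole peak, G-U pairs allowed. These arms are predictions from the letters alone, and no structure was measured. The genes were picked because Lrrn2 and Lrrn1 moved in opposite directions, Fat3 and Flrt1 peaked at the middle stages, and Pcdh10 passed no test.
Lrrn2 peak 1, + strand, chr1:132937231-132937279: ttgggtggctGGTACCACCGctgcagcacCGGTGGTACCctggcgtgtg
Lrrn2 peak 2, + strand, chr1:132938199-132938281: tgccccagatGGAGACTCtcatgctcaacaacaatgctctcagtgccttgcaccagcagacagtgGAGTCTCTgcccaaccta
Lrrn1 peak 2, + strand, chr6:107567486-107567630, the whole peak: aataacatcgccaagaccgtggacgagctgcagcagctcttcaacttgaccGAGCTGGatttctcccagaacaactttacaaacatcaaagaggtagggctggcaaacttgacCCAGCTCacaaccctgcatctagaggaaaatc
Fat3 peak 1, - strand, chr9:15998477-15998515: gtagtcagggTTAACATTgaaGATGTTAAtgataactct
Fat3 peak 2, - strand, chr9:15999521-15999572: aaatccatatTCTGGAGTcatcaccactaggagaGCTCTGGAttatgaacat
Flrt1, - strand, chr19:7096979-7097052: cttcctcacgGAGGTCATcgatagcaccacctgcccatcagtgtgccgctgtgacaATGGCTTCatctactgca
Pcdh10 peak 1, + strand, chr3:45381587-45381731, the whole peak: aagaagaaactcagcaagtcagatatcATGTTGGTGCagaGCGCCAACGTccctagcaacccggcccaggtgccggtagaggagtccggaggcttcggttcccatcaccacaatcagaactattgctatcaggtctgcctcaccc
Pcdh10 peak 2, + strand, chr3:45392627-45392771, the whole peak: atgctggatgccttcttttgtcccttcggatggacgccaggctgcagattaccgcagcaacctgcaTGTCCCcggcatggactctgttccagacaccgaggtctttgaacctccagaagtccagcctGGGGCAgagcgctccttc

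In Lrrn2 peak 1 the arms paired over 10 bases across a 9-base loop. Pcdh10 peak 1 also held a stem of 10 pairs, with a loop of 3 bases. Lrrn1 peak 2 held 7 pairs whose arms stand far apart, with the rest of the peak between and around them. Over the 31 member peaks that lie inside 1 annotated exon, the longest stem had a median of 8 pairs, the same median as over all 4880 such peaks of the table. Stems of 10 or more pairs were found in 9 of the 31 (29.0%), beside 29.1% of all. The members' peaks had a median GC share of 47.6% and a predicted folding energy of -22.7 kcal/mol per 100 bases, beside 46.9% and -23.7 over all. By these measures the member peaks were close to the table as a whole. Among peaks that lie wholly in coding sequence, 4 of the 12 of members held a stem of 10 or more pairs, beside 13.2% of 756, which was given no test.

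Totals over the exonic rows of genes ran from 1955143 to 2456345 counts at E11.5 and from 3367561 to 4696553 later. The 3 E11.5 libraries stood apart: intron rows held 56.3% to 64.0% of the counts of gene rows there and 22.6% to 34.0% at later stages. The members' rows together held 1560 to 1810 counts in an E11.5 library and 4879 to 8771 in a later one. Levels below are CPM, which is edgeR's scaled count over the exonic rows after TMM scaling, as mean ± SD of 3 libraries. The summed CPM of 8 neuron markers, Dcx, Map2 and Snap25 among them, was 505 to 531 (E11.5), 2508 to 2991 (E13.5), 3550 to 4856 (E15.5) and 6599 to 7316 (E17.5). The 6 markers of meninges and mesenchyme, collagens among them, summed to 374 to 449, 492 to 534, 51.4 to 64.6 and 4.30 to 5.96 CPM. For radial glia, 5 of 8 markers were in the table and summed to 813 to 1499 CPM at E11.5 and 1151 to 1792 at E17.5. Red cells were represented by Alas2 at 13.6 to 26.6 CPM at E11.5 and at most 1.34 later, vessels by Kdr and Tek at 8.75 to 65.1, and microglia by C1qb and Csf1r at 8.02 to 23.0. None of these markers was at 0 in all 3 libraries of a stage. From E11.5 to E17.5, 7 of the 8 neuron markers rose, and all 6 meningeal markers and Alas2 fell. Of the 5 radial glia markers 4 fell and 1 rose (median log2 change -1.57), of the 2 vessel markers 1 fell, and neither microglial marker passed. The part that a changing mix of cells has in the members' changes was not tested.

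Of the 38 members, 27 changed over the 4 stages (edgeR's quasi-likelihood F test, adjusted p under 0.05 over all 7654 genes tested). Among all genes tested the share was 54.9%. All 38 passed the filter on low counts. Summed over the members, the level was 981 ± 121 CPM at E11.5 (SD, n = 3), then 1661 ± 77 (E13.5), 1733 ± 184 (E15.5) and 1571 ± 129.6 (E17.5). Of the 27 that changed, 6 peaked at E11.5, 5 did so at E13.5, 11 did at E15.5 and 5 did at E17.5. Over all 4199 genes that changed, 1695 peaked at the first stage, 427 at the second, 342 at the third and 1735 at the fourth. Without the 3 E11.5 libraries, 16 members changed over the other 3 stages. No share over all genes is given for that fit, so this count has no background beside it.

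**Figure D1:**
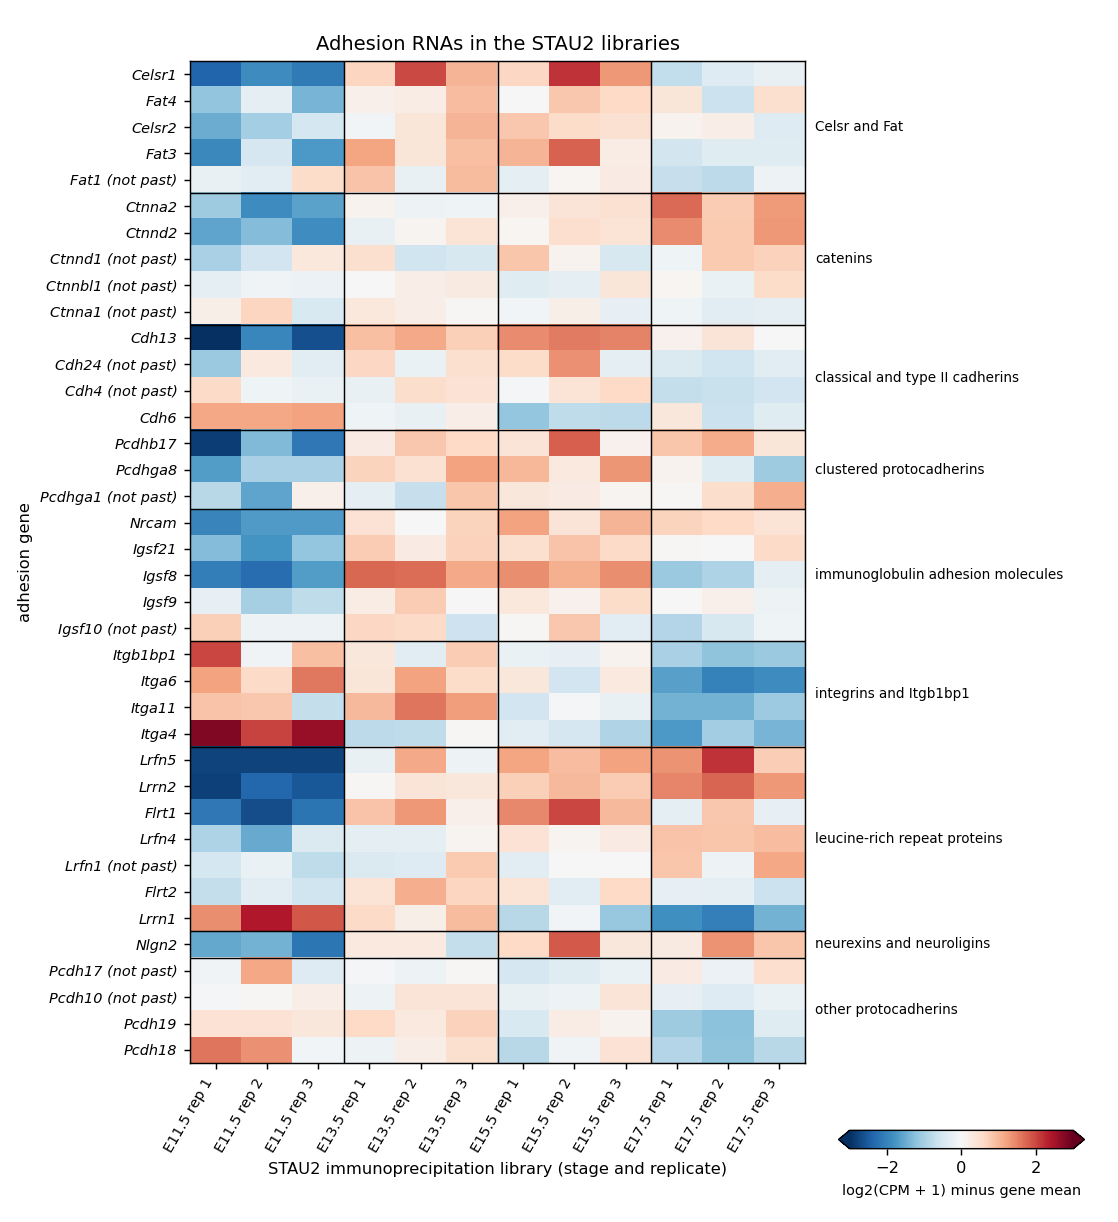
Each row is a member gene and each column a library, grouped by stage; colour gives log2(CPM + 1) minus the gene's mean over the 12 libraries, with the scale ending at 3 in both directions, and "not past" marks genes that did not pass the F test. Most rows are blue in the 3 E11.5 libraries and red at E13.5 and E15.5, while Lrrn1, Itga4 and Cdh6 run the other way.

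Between E11.5 and E13.5 the cortex passes from mostly dividing neuroepithelium to active neuron production. At this step 18 members were higher at E13.5 and 3 were lower, and 17 did not pass. Among all genes tested, 14% were higher and 11.3% lower. The members' median log2 change was 0.88, beside 0.08 over all genes tested. The higher group held cadherins of the Celsr and Fat type (Celsr1, Celsr2, Fat3, Fat4), Cdh13, Pcdhb17, Pcdhga8, both neuronal catenins (Ctnna2, Ctnnd2), Nrcam, Igsf8, Igsf9, Igsf21, Nlgn2, Flrt1, Flrt2, Lrfn5 and Lrrn2. The lower group was Itga4, Lrrn1 and Cdh6. Leaving out E13.5 replicate 1 or 2 ended the call of Cdh6 (adjusted p = 0.0561 and 0.0536), and scaling by totals did too (0.06). Fat4 was lost without E11.5 replicate 1 (0.0588) or 3 (0.0603) or E13.5 replicate 3 (0.0639), and Igsf9 without E11.5 replicate 2 (0.0635) or 3 (0.0519) or E13.5 replicate 2 (0.0796).

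Between E13.5 and E15.5 no member passed in either direction with edgeR. Among all genes tested, 0.196% were higher and 0.549% lower. Unadjusted p was under 0.05 for 9.81% of all genes tested and for 5 of the members. These were Lrrn2 and Nlgn2 with a positive change, and Lrrn1, Cdh6 and Itga11 with a negative one. DESeq2 called 1 of them, Lrrn1 (log2 change -1.23, adjusted p = 0.0283). A fit on the 6 libraries of these stages alone called Itga11 (-2.20, adjusted p = 0.0498). The members' median log2 change was 0.04.

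Between E15.5 and E17.5 more members fell than rose: 3 were higher at E17.5 (Ctnna2, Ctnnd2, Lrrn2) and 11 were lower. Peak by peak, 2 member peaks were higher, in Ctnna2 and Ctnnd2, and 9 were lower. The lower group was Celsr1, Fat3, Cdh4, Cdh13, Cdh24, Pcdhga8, Igsf8, Flrt1, Lrrn1, Itga6 and Itga11. Among all genes tested, 9.73% were higher and 12.2% lower. The members' median log2 change was -0.51, beside -0.02 over all genes tested. At the same step 5 of 6 meningeal markers fell and 3 of 8 neuron markers rose. Of the 5 radial glia markers 2 fell and 1 rose, and 1 of the 2 vessel markers fell. All 6 meningeal markers had also fallen between E13.5 and E15.5. Their median log2 change was -3.37 there and -3.48 at the last step. Between E13.5 and E15.5, 20 members had a positive and 18 a negative log2 change, the lowest being Itga11 at -2.18 (edgeR adjusted p = 0.125). The part of any marker set in the members' changes was not tested. Leaving out 1 library in turn gave 0 to 3 members higher and 6 to 11 lower. None was higher without E15.5 replicate 1 or E17.5 replicate 1, and 1 was without replicate 3 of either stage. The count lower was 6 without E15.5 replicate 2, E17.5 replicate 1 or E17.5 replicate 2.

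The first and last steps share no library, though they share the fit's estimate of spread. Of the 18 members that rose at the first step, 6 fell at the last (33.3%): Celsr1, Fat3, Cdh13, Pcdhga8, Igsf8 and Flrt1. Of the 1069 genes of the whole table that rose at the first step, 13.1% fell at the last. A further 3 of the 18 rose again (16.7%, beside 23.3% of the 1069), and 9 passed in neither direction. Of the 3 that fell at the first step, Lrrn1 alone fell at the last too. These shares are descriptions of a set chosen by name, with earlier results of these data known, and carry no test.

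**Figure D2:**
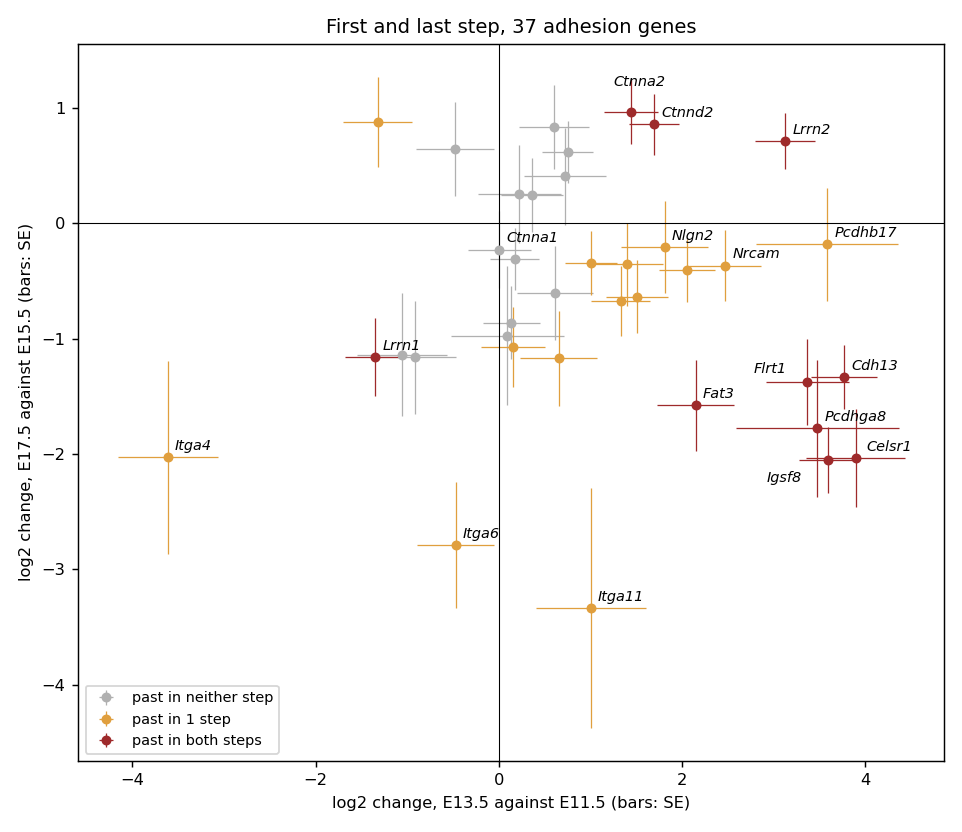
Points are member genes with their log2 change from E11.5 to E13.5 (horizontal) and from E15.5 to E17.5 (vertical), with bars of 1 standard error; Lrfn5 is left out because it had 0 counts at E11.5. Igsf8, Celsr1, Pcdhga8, Cdh13, Flrt1 and Fat3 lie at the lower right, Lrrn2, Ctnnd2 and Ctnna2 at the upper right.

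From the first stage to the last, E17.5 against E11.5, 17 members were higher and 8 lower. Among all genes tested, 29.8% were higher and 28.8% lower. The members' median log2 change was 0.85, beside 0.04 over all genes tested. The lower group was Lrrn1, Cdh6, Pcdh18, Pcdh19, Itga4, Itga6, Itga11 and Itgb1bp1. The higher group held the members that rose at the first step, apart from Fat3, Pcdhga8, Igsf9 and Flrt2, together with Lrfn1, Lrfn4 and the Pcdhga1 row. This comparison shares its libraries with the steps above and is no further evidence for them.

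Of the 5 Celsr and Fat cadherins, 4 rose at the first step, 2 of these fell at the last, and Fat1 passed no test. Celsr1 is a seven-pass cadherin of planar cell polarity. It was at 1.92, 3.09 and 2.47 CPM in the E11.5 libraries, then 22.5, 58.9 and 29.8 (E13.5), 22.4, 67.3 and 36.3 (E15.5) and 8.12, 10.5 and 11.9 (E17.5). All 6 libraries of the middle stages lay above the 6 others. Its log2 change was 3.90 ± 0.54 at the first step (adjusted p = 6.62e-05) and -2.04 ± 0.42 at the last (adjusted p = 0.00267), and E17.5 was 4.1-fold above E11.5. The counts came from 1 peak at chr15:85978469-85978873, of whose 405 bases 272 lie in coding sequence.

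Celsr2, a close relative that acts in motile cilia and axon tracts, rose from 14.9, 21 and 30.2 to 41.7, 56.3 and 89.5 CPM (log2 1.51 ± 0.34, adjusted p = 0.0036). It stood at 67.9 ± 9.09 CPM at E15.5 and 43.7 ± 9.27 at E17.5, a step that did not pass (adjusted p = 0.163). Its peak lies in the 3′ UTR. Its higher level at E17.5 than at E11.5 (log2 0.99 ± 0.34, adjusted p = 0.0181) was lost without E11.5 replicate 1 (0.0923), E17.5 replicate 1 (0.0502) or E17.5 replicate 2 (0.0572). Fat3, a giant cadherin that shapes dendrites, was at 13.9, 38.9 and 16 CPM at E11.5, then 127, 71.8 and 104 (E13.5), 113, 192 and 65 (E15.5) and 37.6, 42.9 and 43.3 (E17.5). It rose 4.43-fold at the first step (adjusted p = 0.00131) and fell 2.99-fold at the last (adjusted p = 0.00887, but 0.0558 without E15.5 replicate 2, its highest library). Both Fat3 peaks, whose stems are printed above, lie in coding exon 10. Fat4, which pairs with Dchs1 and limits progenitor growth, rose 2.64-fold at the first step, to 52.4 ± 16.7 CPM, and was at 41.6 ± 15.7 CPM at E17.5. Its higher level at E17.5 than at E11.5 (adjusted p = 0.0244) was lost without any 1 of 4 libraries (E11.5 replicates 1 and 3, E17.5 replicates 1 and 3), with adjusted p up to 0.0996. Fat1, a relative in progenitor junctions, was at 10.1 ± 4.07, 15.4 ± 6.32, 9.97 ± 1.94 and 6.51 ± 1.83 CPM over the stages (F test, adjusted p = 0.086).

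Among the 4 numbered cadherins no common course appeared: 1 rose and 1 fell at the first step, and 3 fell at the last. Cdh13 (T-cadherin), held to the membrane by a lipid anchor and lacking the tail that binds catenins, was at 1.92, 5.56 and 3.08 CPM at E11.5. It then read 46.2, 54.9 and 40.6 (E13.5), 66.5, 73.1 and 69.7 (E15.5) and 26.5, 32.1 and 24.6 (E17.5). No library of 1 stage overlapped with those of any other, and the order of stages was E11.5, E17.5, E13.5, E15.5 from low to high. The rise was 13.6-fold (adjusted p = 1.57e-06) and the later fall 2.52-fold (adjusted p = 0.00264). Cdh6, a type II cadherin of early forebrain regions, ran the other way, from 17.8, 17.9 and 18.5 CPM at E11.5 to 6.69, 6.2 and 8.69 (E13.5), 2.77, 4 and 3.92 (E15.5) and 9.75, 4.37 and 5.57 (E17.5). The E11.5 libraries lay above all others, and the fall over the whole course was 2.74-fold (adjusted p = 0.00341).

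Cdh4 (R-cadherin, found on early neurons and progenitors) and Cdh24 passed at the last step only and did not pass the F test over the 4 stages. Cdh4 went from 13.1, 18.4 and 21.1 CPM at E15.5 to 7.85, 8.16 and 8.86 at E17.5 (log2 -1.08 ± 0.35, adjusted p = 0.0343). Its E17.5 libraries lay below those of E15.5, yet the call was lost when any 1 of 5 libraries was left out: E15.5 replicate 2 (0.0732) or 3 (0.119), or E17.5 replicate 1 (0.101), 2 (0.0789) or 3 (0.0726). Cdh24 went from 40.2, 71.5 and 21.9 to 20.03, 17.8 and 21.3 CPM (adjusted p = 0.0485), and its E15.5 replicate 2 was the highest of its 12 libraries. Without that library its log2 change was -0.65 (adjusted p = 0.276). Leaving out E11.5 replicate 3, E13.5 replicate 1 or 3, E15.5 replicate 1 or any E17.5 library also ended the call (0.0554 to 0.12).

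Clustered protocadherins give single neurons a surface identity through the choice among many similar exons. Pcdhb17 rose from 4 counts over the 3 E11.5 libraries to 126 at E13.5, or from 0.823 ± 0.943 to 9.53 ± 2.06 CPM (log2 3.59 ± 0.77, adjusted p = 0.00271), and was at 11.3 ± 3.1 CPM at E17.5. Pcdhga8 had 2 counts at E11.5, then 61 (E13.5), 77 (E15.5) and 16 (E17.5). Its ratio at the first step was 12.2 (95% exact binomial interval 3.24 to 103, counting error only). It then fell to 2.44, 1.46 and 0.506 CPM at E17.5 from 5.34, 2.89 and 6.91 at E15.5 (adjusted p = 0.0402), a call that was lost without E13.5 replicate 1 (0.0528), E15.5 replicate 1 (0.0908) or 3 (0.138), or E17.5 replicate 2 (0.0868) or 3 (0.155). Many sequences of these clusters are near copies of each other. How the authors treated reads that map to several of them is not given, so both genes are uncertain. The peak of Pcdhb17, a gene of 1 exon, lies in the 3′ UTR, and its likeness to other genes was not tested. The row named Pcdhga1 lies in the constant last exon, which 22 genes of the gamma cluster share, so it stands for all of them. It read 20.8 ± 13, 34.1 ± 20.2, 37 ± 3.41 and 49 ± 18.1 CPM over the stages and did not pass the F test (adjusted p = 0.132). Its higher level at E17.5 than at E11.5 (adjusted p = 0.0246) was lost without E11.5 replicate 1 (0.0818) or 2 (0.106) or E17.5 replicate 3 (0.115).

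None of the 4 other protocadherins passed at any single step, and 2 were lower at E17.5 than at E11.5. Pcdh19, a homophilic protocadherin whose human gene is tied to an epilepsy of girls, was at 30.7, 30.9 and 29 CPM at E11.5, then 33.2 ± 4.54 (E13.5), 22.4 ± 5.47 (E15.5) and 10.3, 9.04 and 17.47 (E17.5). Every E17.5 library lay below every E11.5 library (log2 -1.29 ± 0.32, adjusted p = 0.0025). Pcdh18 fell from 18.3, 15.4 and 4.94 to 2.44, 1.75 and 2.53 CPM (adjusted p = 0.000762). Pcdh10, which recruits actin regulators and guides axons, passed no test. It read 40.1 ± 3.32, 45.1 ± 9.31, 39.1 ± 10.04 and 31.5 ± 2.09 CPM over the 4 stages (F test, adjusted p = 0.385). Pcdh17, a protocadherin of growing axons, read 11.2 ± 7.45, 7.97 ± 0.54, 6.29 ± 0.783 and 9.82 ± 2.44 CPM (adjusted p = 0.336).

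The catenins divided into a pair that rose and 3 that passed no test, the others being Ctnna1, Ctnnd1 and Ctnnbl1. Ctnna2 (αN-catenin) is the neuronal form of the protein that couples cadherins to actin. It was at 42.8, 23.5 and 29 CPM at E11.5, then 97.5, 80.9 and 82.7 (E13.5), 99.9, 118 and 124 (E15.5) and 294, 153 and 221 (E17.5). The libraries of each stage lay above all those of the stage before. The log2 change was 1.45 ± 0.30 at the first step (adjusted p = 0.00179), 0.97 ± 0.28 at the last (0.0197) and 2.80 ± 0.30 over the whole course (9.10e-07). The last step was lost without E15.5 replicate 1 (0.0767) or E17.5 replicate 1 (0.0986). Ctnnd2 (δ-catenin, a binder of cadherin tails in dendrites) was at 50.4, 61.1 and 41.3 CPM at E11.5, then 129.8, 162 and 203 (E13.5), 159, 216 and 204 (E15.5) and 408, 264 and 376 (E17.5). Its rise over the course was 6.86-fold (adjusted p = 4.59e-07). The last step (log2 0.86 ± 0.26, adjusted p = 0.027) was lost without replicate 1 or 3 of either stage (up to 0.107) and with scaling by totals (0.0505).

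The forms of these catenins that most tissues carry did not pass. Ctnna1 (αE-catenin) read 14.1 ± 5.56, 14.2 ± 1.51, 12 ± 1.88 and 10.2 ± 0.791 CPM over the stages (adjusted p = 0.543). Ctnnd1 (p120-catenin) read 16.5 ± 8.31, 19.1 ± 8.96, 24.9 ± 11.8 and 29.6 ± 9.51 CPM (adjusted p = 0.328), and its peak also overlaps the gene model Gm28635. Whether the neuronal forms differ from these in their change was not tested. Ctnnbl1 read 13.4 ± 0.867 to 17.47 ± 4.98 CPM from first to last stage (adjusted p = 0.679).

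**Figure D3:**
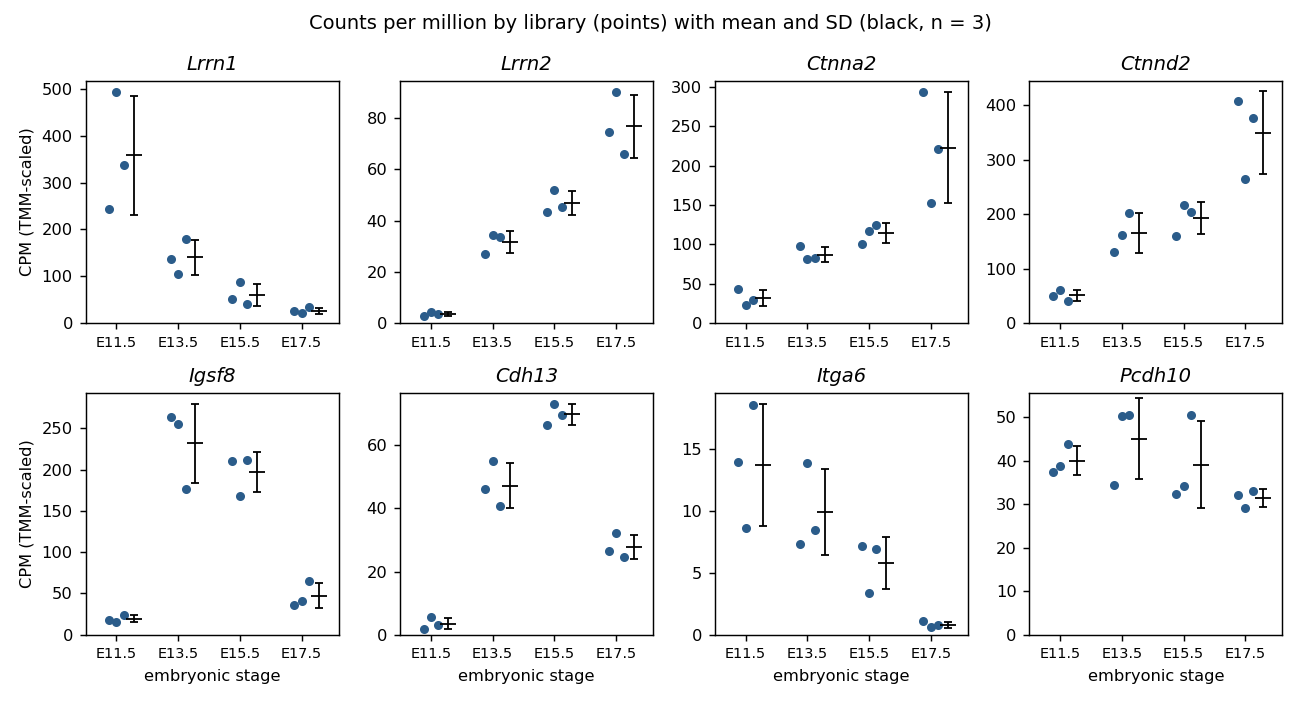
Each panel shows 1 member gene, with points for the 3 libraries of a stage and, in black, their mean and SD (n = 3); the vertical axis is TMM-scaled CPM and starts at 0. Lrrn1 and Itga6 run downward, Lrrn2, Ctnna2 and Ctnnd2 upward, Igsf8 and Cdh13 are highest at E13.5 and E15.5, and Pcdh10 lies between 29.2 and 50.6 CPM in all 12 libraries.

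Of the 5 immunoglobulin-type adhesion molecules, 4 rose at the first step and 1 of these, Igsf8, fell at the last. Igsf8 encodes a partner of tetraspanins at the cell surface. It was at 18.3, 15.4 and 24.1 CPM at E11.5, then 264, 255 and 177 (E13.5), 210.5, 169 and 212 (E15.5) and 36, 41.4 and 64.8 (E17.5). The middle stages lay far above both ends without overlap. Its log2 change was 3.59 ± 0.31 at the first step (adjusted p = 7.56e-07) and -2.05 ± 0.28 at the last (adjusted p = 0.00013), and both passed under all the alternatives run. The counts came from 1 peak at chr1:172318227-172318631, of whose 405 bases 296 lie in coding sequence.

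Nrcam, a partner of ankyrin in growing axons and at nodes of Ranvier, was at 2.88, 3.71 and 3.7 CPM at E11.5 and 19.6, 14.1 and 23.2 at E13.5 (log2 2.47 ± 0.39, adjusted p = 0.000212). It was at 27.8 ± 7.81 CPM at E15.5 and 21.6 ± 2.09 at E17.5, where the step did not pass. Igsf21, a synaptic organiser, went from 13.45, 9.26 and 14.8 to 58.7, 41.3 and 56.3 CPM at the first step (adjusted p = 0.000115) and was at 40.9 ± 9.77 CPM at E17.5. Igsf9, which acts in dendrite growth and at inhibitory synapses, rose 2.02-fold to 88.5 ± 25.4 CPM (adjusted p = 0.0146). Fitted singly, its peaks changed by log2 1.42, 1.62 and 0.64 at this step (adjusted p = 0.107, 0.00623 and 0.265). Igsf10, the exception of the class, had 19 to 52 counts per stage and did not pass (F test, adjusted p = 0.411).

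Nlgn2, the neuroligin of inhibitory synapses, was the single member of the neurexin and neuroligin class. It went from 9.13, 9.88 and 5.55 CPM at E11.5 to 35, 35.1 and 16.7 at E13.5 (log2 1.81 ± 0.47, adjusted p = 0.00966). Its later libraries were spread widely, at 43.3, 104 and 35.7 CPM at E15.5 and 34.1, 73.2 and 51.4 at E17.5. The libraries of these last stages overlapped with each other and not with E11.5. The peak lies in coding exon 8, at chr11:69825636-69825952.

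The 7 leucine-rich repeat proteins held members that changed in opposite directions. Lrrn1 and Lrrn2 are close relatives with an outer domain of leucine-rich and immunoglobulin-like repeats. Lrrn1 was at 243, 493 and 338 CPM at E11.5, then 137, 104 and 179.8 (E13.5), 51, 87.1 and 41.5 (E15.5) and 24.9, 21.3 and 33.9 (E17.5). Each stage lay below the one before without overlap. Its log2 change was -1.35 ± 0.33 at the first step (adjusted p = 0.00652), -1.23 ± 0.33 at the middle step (0.125) and -1.16 ± 0.34 at the last (0.0216), or a 13.4-fold fall in all (3.05e-07). The last step was lost without E15.5 replicate 2 (0.117) or E17.5 replicate 1 (0.078) or 2 (0.0748).

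Lrrn2 ran the opposite way, at 2.88, 4.32 and 3.7 CPM at E11.5, then 26.8, 34.4 and 33.7 (E13.5), 43.3, 52 and 45.2 (E15.5) and 74.4, 90.1 and 65.8 (E17.5). Each stage lay above the one before without overlap. Its rise over the whole course was 21.2-fold (log2 4.40 ± 0.33, adjusted p = 1.68e-08), of which 8.72-fold came at the first step (3.66e-06). The last step only just passed (log2 0.71 ± 0.25, adjusted p = 0.0465). It was lost without any 1 library other than E11.5 replicate 2, with adjusted p up to 0.161 (without E17.5 replicate 2), and with scaling by totals (0.0902) or with the 6 libraries alone (0.0682).

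The Lrfn proteins (SALMs) organise synapses through the scaffold beneath them. Lrfn5 had 0 counts in all 3 E11.5 libraries, against 105 (E13.5), 208 (E15.5) and 205 (E17.5). Taking 3 counts per stage as the floor, its rise to E13.5 was at least 14.03-fold (adjusted p = 0.000586) and its rise to E17.5 at least 32.8-fold (adjusted p = 1.16e-05). Lrfn4 went from 40.8, 26.6 and 57.4 CPM in the first stage to 142, 139 and 148 in the last, with 70.1 ± 10.2 and 93.1 ± 11.55 between. It passed over the whole course (log2 1.78 ± 0.28, adjusted p = 4.29e-05) though at no single step. Lrfn1 went from 26.8 ± 5.61 to 62 ± 26 CPM over the course (adjusted p = 0.0117, but 0.0676 without E17.5 replicate 3), and its F test over the stages did not pass (0.0532).

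Flrt proteins bind Unc5 and latrophilins and keep migrating neurons and axons apart or together. Flrt1 was at 5.76, 3.71 and 5.55 CPM at E11.5, then 53.3, 72.1 and 31.9 (E13.5), 80.5, 118 and 57.2 (E15.5) and 23.3, 51 and 24 (E17.5). It rose 10.3-fold at the first step (adjusted p = 5.37e-05) and fell 2.6-fold at the last (adjusted p = 0.0135), with E11.5 below every other library. The fall was lost without E15.5 replicate 2 (0.0661) or E17.5 replicate 1 (0.0751) or 3 (0.0645). Flrt2 rose 2.52-fold at the first step, from 16.3, 21.6 and 17.9 to 37, 59.9 and 43.4 CPM (adjusted p = 0.00581). At E17.5 it was at 21.1 ± 3.36 CPM, and the change from E11.5 did not pass (log2 0.18 ± 0.32, adjusted p = 0.645).

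All 4 genes of the integrin class, Itgb1bp1 included, were lower at E17.5 than at E11.5. Itga4 encodes the α4 chain that binds fibronectin and VCAM1 and is known from mesenchyme, neural crest and blood cells. It fell from 21.6, 12.4 and 19.1 CPM at E11.5 to 0.892, 0.954 and 2.39 at E13.5 (log2 -3.61 ± 0.55, adjusted p = 0.000146) and 1.58, 1.33 and 0.747 at E15.5. At E17.5 it had 3 counts over the 3 libraries, a ratio of 66.6 to E11.5 (95% exact binomial interval 22.1 to 329, counting error only). Itga6, the laminin-binding α6 chain found on radial glial endfeet and vessels, was at 13.9, 8.65 and 18.5 CPM at E11.5, then 7.36, 13.8 and 8.47 (E13.5), 7.12, 3.33 and 6.91 (E15.5) and 1.08, 0.583 and 0.759 (E17.5). Of its 3 steps the last alone passed (log2 -2.79 ± 0.55, adjusted p = 0.00181), and E17.5 lay below every other library. Itga11, the collagen-binding α11 chain of fibroblasts, had 15 counts at E11.5, then 74 (E13.5), 18 (E15.5) and 1 (E17.5). The ratio of E15.5 to E17.5 was 13.4 (95% interval 2.11 to 557; adjusted p = 0.0299), and leaving out E15.5 replicate 2 (0.0719) or 3 (0.0655) or E17.5 replicate 1 (0.104) or 2 (0.0882) ended this call. At the first step, where Itga4 fell, Alas2 of red cells was at 13.6 to 26.6 CPM before and at most 1.34 after, while the meningeal markers summed to 374 to 449 CPM and then 492 to 534. Those meningeal sums were lower at the later stages, 51.4 to 64.6 (E15.5) and 4.30 to 5.96 CPM (E17.5). The part of either marker set in the integrin changes was not tested.

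Itgb1bp1 had its exonic counts in a 5′ UTR peak and went from 40.8, 8.65 and 18.5 to 4.33, 3.5 and 3.8 CPM over the course, with 12.1 ± 4.66 and 8.72 ± 1.36 between (E17.5 against E11.5, log2 -2.55 ± 0.50, adjusted p = 0.000309). When its intron row was summed with the peak, the change was -0.62 and did not pass (adjusted p = 0.222).

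Peak by peak, 38 of the 57 member peaks changed over the stages, in 27 genes, where 46.6% of all peaks tested did. That share includes intron rows, which the member peaks do not, and the share over exonic rows alone is not given. By the table's own calls 29 of the 57 lie in exons, 26 in 3′ UTRs (45.6%, beside 48.7% of all exonic rows) and 2 in 5′ UTRs. By GENCODE 31 lie inside 1 exon, 12 lie wholly in coding sequence and 37 hold some coding bases. The sources differ for some peaks: in Ctnna1, Ctnnd2 and Igsf9, peaks called 3′ UTR by the table lie over coding exons by GENCODE. A peak named coding in the text may also hold bases outside exons. Several peaks were present in 12 of the 38 genes (31.6%), beside 43.2% of all genes. Peaks of 1 gene come from the same RNAs, so they are not independent. Peak levels below are CPM over all gene rows, introns included, and are not on the scale of the gene levels above.

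Within Lrrn1, Lrfn4, Fat3, Igsf9 and Pcdh19 the peaks had like changes over the whole course, with gaps of at most 0.39 on the log2 scale. The peaks of Fat3 and Igsf9 did not pass over that course (adjusted p = 0.0956 to 0.315), nor did the Pcdh19 peak called exon (0.0659). The Lrrn1 peaks lie in the 5′ UTR (chr6:107529860-107530176) and in coding exon 2 (chr6:107567486-107567630), and their log2 changes from E11.5 to E17.5 were -4.02 ± 0.47 and -3.62 ± 0.43. The 5′ UTR peak fell from 44.2, 97.6 and 36.5 to 3.36, 3.8 and 3.77 CPM. The coding peak, printed whole above, fell from 105, 206 and 169 to 12.1, 9.41 and 17.3 CPM. Both coding peaks of Lrrn2 rose, by 4.61 ± 0.54 and 3.79 ± 0.43 on the log2 scale. Its 3′ UTR peak went from 0 to 161 counts, which is at least 26.1-fold higher with the floor at 3 counts per stage. The 3 Lrfn4 peaks rose by 1.71, 1.85 and 1.79, and the 2 Fat3 peaks differed in log2 change by 0.04.

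Ctnna2 had the widest gap between peaks that were counted at every stage. Its 3′ UTR peak (chr6:76881645-76881955) went from 9.13, 4.56 and 2.63 to 135, 53 and 85.3 CPM between these stages, a log2 change of 4.03 ± 0.47 (adjusted p = 4.67e-07). A coding peak (chr6:77636548-77636858) went from 10.3, 8.35 and 10.9 to 41.3, 36 and 38.2 CPM, a change of 1.96 ± 0.34 (adjusted p = 5.93e-05). The other coding peak (chr6:77604908-77605218) went from 6.78, 1.52 and 4.13 to 6.21, 5.97 and 13.7 CPM, and its change of 1.03 ± 0.54 did not pass (adjusted p = 0.112). Summed over the 3 libraries of a stage, the 3′ UTR peak went from 50 to 1638 counts and this last peak from 38 to 157. The gap itself was given no test. Both coding peaks are 311 bases wide, of which 144 in the first and 38 in the other lie in exons of the GENCODE transcript. The rest of each lies outside those exons, so the gap does not set 3′ UTR against coding sequence alone. The part of intron reads in these peaks was not tested. In Ctnnd2 the 4 peaks rose by 2.58, 2.23, 2.95 and 2.94. Cdh4, Igsf21 and Pcdh10 had the next widest gaps, between 0.85 and 1.01 on the log2 scale, and in Igsf21 the peak that spans the stop codon rose by 2.15 ± 0.46 and the coding peak by 1.23 ± 0.38. From E15.5 to E17.5 the 3′ UTR peak of Ctnna2 (log2 1.33, adjusted p = 0.0304) and the Ctnnd2 peak at chr15:31028109-31028531 (1.26, 0.0205) passed. The other peaks of both genes had positive changes that did not pass (adjusted p = 0.158 to 0.694). The Lrrn2 peaks also had positive changes that did not pass (0.0563 to 0.452).

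**Figure D4:**
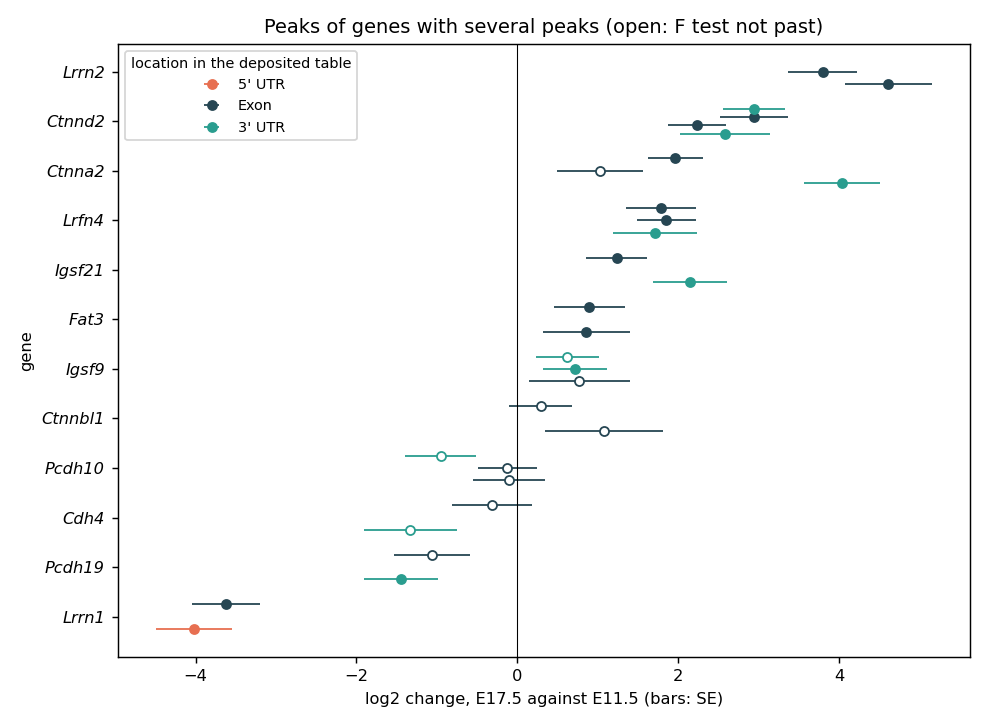
Each point is a peak of a gene with several peaks, placed by its log2 change from E11.5 to E17.5 with a bar of 1 standard error, coloured by the table's location and open where the peak did not pass the F test; the 3′ UTR peak of Lrrn2 is left out because it had 0 counts at E11.5. The 3′ UTR peak of Ctnna2 lies at 4.03 and its peaks that lie partly in coding exons at 1.96 and 1.03. The peaks of Fat3, Lrfn4 and Igsf9 nearly coincide.

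A list of 50 other genes of cell contact, such as L1-type molecules, nectins, teneurins, receptor phosphatases and their scaffolds, was set beside the members. It was chosen with earlier results of these data known, so its counts are descriptions and back no claim about the members. Of these, 29 were in the table and 22 of them changed over the stages, where 54.9% of all genes tested did. At the first step 13 were higher and 2 lower, beside 14% and 11.3% of all genes. At the last step 2 were higher and 6 lower (9.73% and 12.2% of all), so the count higher lay near the share over all genes. Over the whole course 17 were higher and 4 lower (29.8% and 28.8% of all). L1cam, an axonal relative of Nrcam, rose from 15.3 ± 2.96 to 484 ± 235 CPM (log2 4.97 ± 0.46, adjusted p = 1.31e-06). Dchs1, the ligand of Fat4, rose by 2.18 ± 0.34 (adjusted p = 0.00019). Nectin3, a junction protein of progenitors, fell by 1.15 on the log2 scale at the same step (adjusted p = 0.0073).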

How the data were processed

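The members, the partner list and the marker lists were chosen with earlier results of these data known. The authors deposited whole-number counts per merged peak and strand, and a score per peak. Per the submitters' processing notes, HOMER 4.10 and the builds mm10 and GRCm38 were used; the sources used here name neither an aligner nor any scaling of the counts. The 12 count columns carry stage and replicate numbers that the labels give to immunoprecipitations and inputs alike, and the fact that the table lists peaks led to their reading as immunoprecipitations. Per the labels' protocols, libraries were made with ScriptSeq after ribosomal RNA removal.

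Rows not called Intron or Intergenic were summed per gene, and all genes were fitted together with edgeR 4.0.16 in R 4.3.3 (TMM scaling, filterByExpr, quasi-likelihood test, Benjamini-Hochberg adjustment at 0.05 over the 7654 genes tested). Peaks were fitted likewise as single rows, introns included (14106 tested). Standard errors are the log2 change over the root of F. The common biological coefficient of variation was 0.295 for genes and 0.342 for peaks. Floors of 3 counts and 95% intervals cover counting error only. The fit was tested on simulated data of 7654 genes, with 100 changed 4-fold and 100 changed 2-fold. It recovered 84 and 24 of these for E13.5 against E11.5, with 1 false call. The values were 85 and 23 for E15.5 against E13.5, with 3 false calls, and 86 and 17 for E17.5 against E15.5, with 2. For E17.5 against E11.5 they were 78 and 18, with 4 false calls. A gene that did not pass may therefore have changed. Far more genes were called in the real data (1069 higher and 867 lower at the first step), so recovery there may differ.

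Peak sequences came from GENCODE vM21 transcripts and were folded with RNAfold 2.7.2 (base pairs at most 150 apart), only where a peak lies in 1 exon. Genes named were, per class, the 4 with the smallest F test p and the highest level, the 10 largest rises and falls over the whole course, the 5 widest gaps between peaks, and steady genes; a few others were added after their values were seen. Alternatives were DESeq2 1.42.0, scaling by totals, no filter, intron rows summed, a replicate block, stages fitted alone, high-score peaks, each library left out, and, added after seeing the data, no E11.5 libraries.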

Additional observations from a re-analysis of the deposited data

Results flagged for a closer look

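Intron rows of genes with adhesion symbols were left out of the member set, yet they held counts in these libraries. Over all 12 libraries the Cdh8 row held 2617 counts, Cntn3 281, Cntnap5b 58549, Ctnnd2 231, Itga9 4102, Itgb1bp1 866 and Pcdha1 59. Inputs were not analysed here, so these counts have no control beside them. The row of Cdh8, a type II cadherin of cortical areas, went from 11 ± 2.06 CPM at E11.5 to 37.6 ± 7.63 at E13.5 and was at 35.6 ± 5.69 at E17.5 (E17.5 against E11.5, log2 1.69 ± 0.38, edgeR adjusted p = 0.000802). The Ctnnd2 intron row rose by 2.10 ± 0.56 on the log2 scale (adjusted p = 0.00334). The Itga9 row fell by 2.84 (adjusted p = 0.00454), though its SD at E11.5 exceeded its mean (268 ± 347 CPM). The Cntnap5b row fell by 2.13 (adjusted p = 0.00191), from 2638 ± 1257 to 603 ± 305 CPM. All intron values are on the peak scale, and the E11.5 libraries had a larger share of intron counts than the later ones.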

How the results depend on the processing

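Leaving out each library in turn gave 26 to 30 changed members over the 4 stages and 36 to 40 changed peaks. It gave 17 to 18 members higher and 2 to 4 lower at E13.5 against E11.5, 0 to 0 in both directions at E15.5 against E13.5, 0 to 3 higher and 6 to 11 lower at E17.5 against E15.5, and 14 to 17 higher and 8 to 9 lower at E17.5 against E11.5. At E17.5 against E15.5 the count higher was 0 without E15.5 replicate 1 or E17.5 replicate 1 and 1 without replicate 3 of either stage, and the count lower was 6 without E15.5 replicate 2, E17.5 replicate 1 or E17.5 replicate 2. Without the E11.5 libraries 16 members and 17 peaks changed, a fit with fewer stages and samples. Peaks scoring at or above the median gave 17, from fewer peaks tested. No share over all genes or peaks is given beside these counts. DESeq2, and the fit on 6 libraries, each gave 1 lower member at E15.5 against E13.5, and scaling by totals gave 1 higher at E17.5 against E15.5; the cause was not tested. Scaling by totals moved the median log2 change of all genes by 0.36 at E13.5 against E11.5, -0.11 at E17.5 against E15.5 and 0.31 at E17.5 against E11.5. Of 57 changes of named members, 40 passed under every alternative; of 1038 values under alternatives 72 no longer passed and 0 reversed. Same-numbered libraries had correlated deviations of -0.184 to 0.511 (median 0.128, over 0.1 in 11 of 18 pairs), and differently numbered ones -0.435 to 0.491 (median -0.184, over 0.1 in 9 of 36). All 3 pairs of E13.5 with E15.5 were over 0.1 (0.117 to 0.148). Not every library correlated best with its own number, and over the 4 stages the numbers were not taken as a pairing. With the number as a replicate block, 28 members and 39 peaks changed, 19 were higher at E13.5 against E11.5, 0 in either direction at E15.5 against E13.5, 10 lower at E17.5 against E15.5 and 18 higher at E17.5 against E11.5, and Cdh24 lost its call at E17.5 against E15.5 (adjusted p = 0.0647). At most 19 counts at E11.5 stand behind Lrrn2, Nrcam, Celsr1, Cdh13, Pcdhb17, Pcdhga8, Lrfn5, Igsf10 and Itga11, so their folds are imprecise.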

Other observations

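Itgb1bp1 had a peak and a separate intron row. Its 5′ UTR peak went from 13.9 ± 10.1 to 2.4 ± 0.262 CPM on the peak scale between E11.5 and E17.5 (SD, n = 3), while its intron row went from 11 ± 3.92 to 14.2 ± 9.36 and did not pass in E17.5 against E11.5 (edgeR, log2 0.38 ± 0.57, adjusted p = 0.59). The difference between the rows was not tested.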
